A study of Chlamydomonas reinhardtii with 4 samples.

Results

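Loss of the DNA methyltransferase DNMT1 was examined in 1 strain of the unicellular green alga Chlamydomonas reinhardtii, CC-5155, of mating type plus (mt+), by comparing the H3K27ac peak list of a DNMT1 knockout (dnmt1) with that of wild type (WT). Every peak of both lists was a member of the comparison, which gave 29976 of the 60364 peaks in the 4 libraries of the series. Both cultures were in the vegetative stage and were grown in TAP medium under continuous light. Each genotype had 1 library, so no difference between genotypes was tested, and all values describe these libraries. WT and dnmt1 libraries from CC-5325, a strain with the other mating type (mt-), served as a yardstick. The labels do not say how the knockout was made or whether it was 1 clone.

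H3K27ac is acetylation of a lysine in the tail of histone H3, a mark of active promoters and of enhancers in animals and of active gene starts in plants and algae. DNMT1 enzymes are best known from mammals, where they copy cytosine methylation onto the new DNA strand after replication, and methylated DNA is usually poor in the marks of active chromatin. In vegetative Chlamydomonas cells most of the nuclear genome carries little cytosine methylation, which is concentrated in repeats.

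A peak is an interval in which the authors' peak caller found more reads in the precipitated sample than in the input control. A peak that overlapped no peak of the other list by at least 1 bp was called lost when it was in WT and gained when it was in dnmt1. Strength was taken as the percentile of a peak's -log10 q within its own list, from 0 for the weakest to 100 for the strongest, because read depth is unknown. Fold enrichment is the authors' own value at the summit, the highest point of the peak. A peak absent from a list did not pass the authors' threshold, which does not show that the mark was absent.

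The mt+ lists were alike in size. WT had 14990 peaks over 13.03 Mb with a median width of 814 bp, and dnmt1 had 14986 over 12.93 Mb with a median width of 805 bp. In all, 14402 pairs of peaks were one-to-one partners, 96.1% of each list. A further 111 WT peaks each overlapped several dnmt1 peaks (228 in all), and 63 dnmt1 peaks each overlapped several WT peaks (127 in all). The smallest overlap was 66 bp, so no partner rested on a touching edge.

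H3K27ac peaks lost in dnmt1 were weak and narrow. Of the WT peaks 356 had no dnmt1 partner (2.37%, exact 95% Clopper-Pearson interval 2.14 to 2.63, counting error only). Their median width was 284 bp, the widest had 918 bp, and their median fold enrichment was 2.16. By strength 337 of them (94.7%) stood in the lowest 10% of the WT list, and 0 stood above its median. The nearest dnmt1 peak lay a median of 1798 bp away, and 292 had one within 5000 bp. The distance to a neighbouring peak was not taken for all WT peaks, so closeness is not shown to be particular to lost peaks.

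Gained peaks were about as many but reached far higher in their list. Of the dnmt1 peaks 299 had no WT partner (2.0%, exact interval 1.78 to 2.23). Their median width was 397 bp and their median fold enrichment 2.32, and 118 were at least 500 bp wide against 19 of the lost peaks. Most were weak too, with 176 (58.9%) in the lowest 10% of the dnmt1 list, but 33 stood above its median and 6 in its top 10%. They also lay farther from the peaks of the other list, at a median of 4118 bp, and 40 lay over 20000 bp from any WT peak or on a sequence with none, against 3 of the lost peaks.

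**Figure D1:**
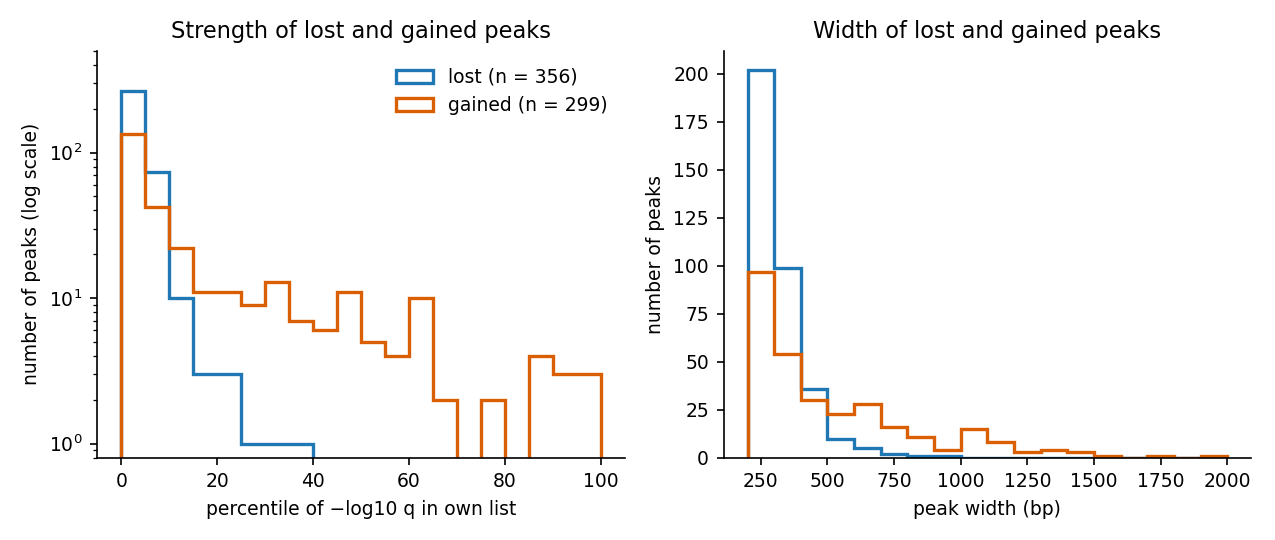
Numbers of lost (WT) and gained (dnmt1) peaks in strain CC-5155 by percentile of -log10 q in their own list (left, log scale) and by width in bp (right). Lost peaks end at the 38.5th percentile and at 918 bp, while gained peaks reach the 98.9th percentile and 1959 bp.

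The same positions were looked up in the mt- strain, whose libraries were not used to call peaks lost or gained here. Among gained peaks, 175 (58.5%) overlapped a dnmt1 mt- peak without a WT mt- peak, and these were the stronger ones, with a median width of 553 bp and a median at the 17.5th percentile. Another 64 (21.4%) had a peak in both mt- lists, 21 (7.02%) in WT mt- alone and 39 (13.0%) in neither. Over all dnmt1 mt+ peaks the share in dnmt1 mt- alone was 1.67%, and over those in the lowest 10% of the list 8.21%. Of the lost peaks 166 (46.6%) had a peak in both mt- lists, 59 (16.6%) in dnmt1 mt- alone, 45 (12.6%) in WT mt- alone and 86 (24.2%) in neither. Over all WT mt+ peaks the share in WT mt- alone was 0.514%, and over those in the lowest 10% of the list 4.67%. For lost peaks the rise over the lowest-10% background was not particular to the mt- pattern that matches genotype. That background was 7.67% for dnmt1 mt- alone and 6.47% for neither list, and lost peaks exceeded both. They also more often had a peak in dnmt1 mt- alone than in WT mt- alone. For gained peaks the lowest-10% background was 2.34% for WT mt- alone and 3.47% for neither list. Whether the ChIP libraries of both strains share 1 input control could not be told from the labels.

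The strongest lost peaks were modest. The one with the highest fold enrichment, at chromosome 3, 8883862 to 8884700, had 5.07 and stood at the 38.5th percentile, and both mt- lists had a peak there. The 10 most enriched lost peaks ranged from 3.47 to 5.07. Of those 10, 5 had a peak in both mt- lists, 4 in dnmt1 mt- alone and 1, at chromosome 2, 427106 to 427500, in neither. An exception to the short gaps was the peak at chromosome 15, 1083303 to 1083535 (fold enrichment 3.74), whose nearest dnmt1 peak lay 24246 bp away.

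The strongest gained peaks were broad, and 9 of the 10 named lay within 15.1 kb of another gained peak. The 10 with the highest fold enrichment ranged from 6.64 to 7.94 and were 829 to 1414 bp wide. The one with the highest percentile, at chromosome 13, 4323966 to 4325228, stood at the 98.9th, was 1263 bp wide and lay 10912 bp from the nearest WT peak. The peak at chromosome 10, 3631221 to 3632401 (7.03), lay 7712 bp from WT and the one at chromosome 14, 2264868 to 2265871 (6.64), 28856 bp. On chromosome 6 a pair at 4551713 to 4552908 (6.97) and 4566839 to 4567886 (7.94) lay 15.1 kb or less from other gained peaks, as did a pair on chromosome 9 at 4253046 to 4253874 (6.77) and 4357023 to 4358436 (6.88). Of these 10, 9 had a dnmt1 mt- peak without a WT mt- peak, and the exception, at chromosome 9, 4253046 to 4253874, had one in both mt- lists.

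Gained peaks lay in clusters, and lost peaks were spread more evenly. Another gained peak lay within 50 kb of 183 gained peaks (61.2%), while another lost peak lay within 50 kb of 118 lost peaks (33.1%). In windows of 200 kb, 16 windows held 5 or more gained peaks and 129 of them in all, against 5 windows with 5 or more lost peaks and 30 in all. The window with the most gained peaks, chromosome 3 from 7000001 to 7200000, had 14, with fold enrichments of 1.78 to 6.21. It held 8 WT peaks, whereas the median window with any held 26, and 13 of the 14 overlapped a peak in dnmt1 mt- alone. The next were chromosome 10, 3600001 to 3800000, with 12, chromosome 9, 4200001 to 4400000, with 11, chromosome 4, 800001 to 1000000, with 10, and chromosome 7, 3000001 to 3200000, with 9. These windows held 8 to 12 WT peaks, and lost peaks numbered 0 in each. Chromosome 6, 4400001 to 4600000, also had 9 gained peaks, with a lower median fold enrichment.

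Fewer windows held many lost peaks. The highest count was 8, on chromosome 1 from 5800001 to 6000000, and all 8 lay within 23 kb, between 5853569 and 5876354, with a median width of 232 bp. The others were chromosome 6, 600001 to 800000, and chromosome 9, 400001 to 600000, with 6 each, and chromosome 4, 600001 to 800000, and chromosome 6, 3000001 to 3200000, with 5 each. Leaving out the lost peaks themselves, these 5 windows held 23 to 56 WT peaks.

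Chromosome 15 stood out in both directions. It had 32 lost peaks, 5.82% of its WT peaks, and 39 gained peaks, 6.87% of its dnmt1 peaks. Next for lost peaks came chromosomes 14 (3.24%) and 6 (3.04%), and for gained peaks chromosomes 17 (3.21%) and 11 (2.87%). The lowest shares of lost peaks were on chromosomes 2 (1.09%), 10 (1.10%) and 13 (1.5%), and of gained peaks on chromosomes 2 (0.670%), 13 (0.753%) and 14 (0.969%). Between the WT lists of the strains chromosome 15 also had high shares, 4.36% lost and 5.04% gained. It thus differed between lists that are both WT for DNMT1 but come from different strains and mating types. That comparison uses the same WT mt+ list. Lost peaks outnumbered gained peaks on 10 of 17 chromosomes and gained peaks lost ones on 5.

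**Figure D2:**
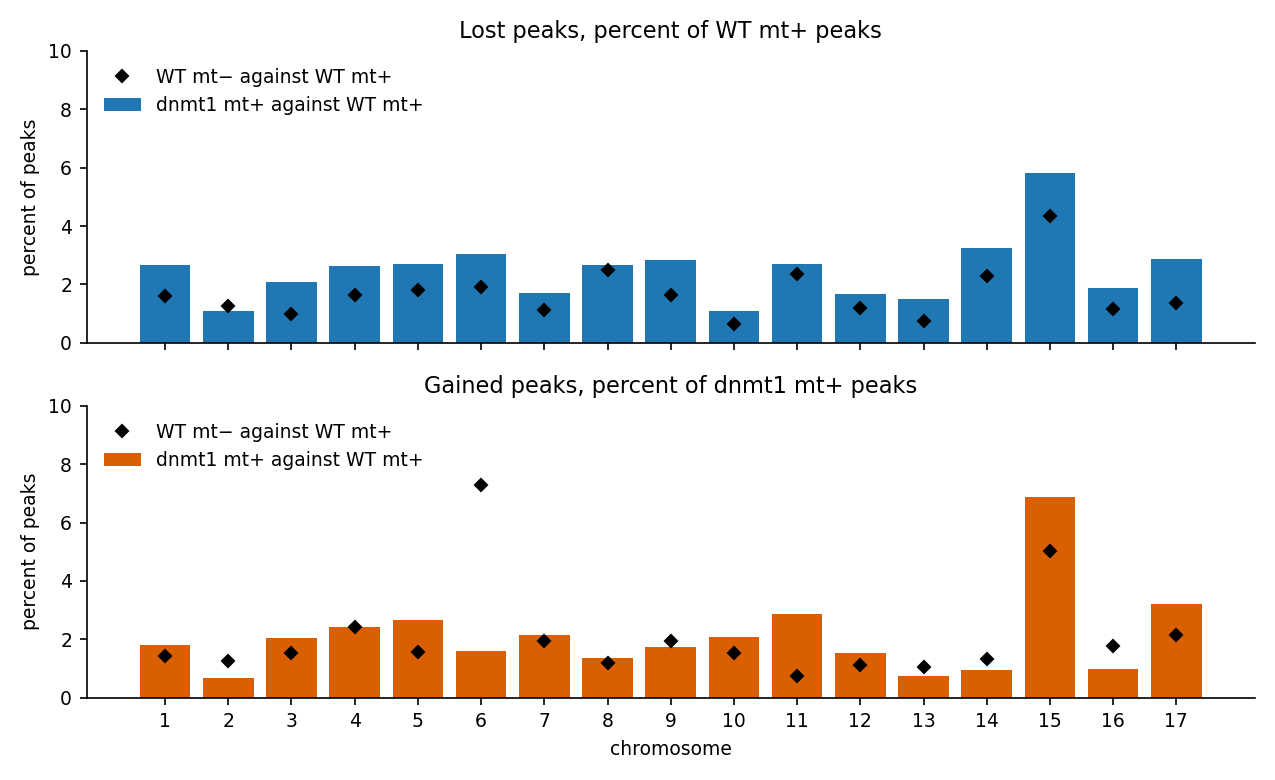
Share of WT mt+ peaks lost in dnmt1 mt+ (top) and share of dnmt1 mt+ peaks gained (bottom) on each numbered chromosome, as percent of peaks; diamonds give the same shares for WT mt- against WT mt+. Chromosome 15 has the highest dnmt1 bars in both panels, at 5.82% and 6.87%.

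Along the chromosomes, gained peaks were found close to the outermost peaks and in the middle more often than peaks in general, but not in the outer parts as a whole. The outer 20% at each end of the chromosomes held 31.4% of gained peaks, against 40.6% of all dnmt1 peaks. Of 287 gained peaks on numbered chromosomes, 19 (6.62%) lay within 50 kb of the first or last peak of their chromosome, against 1.75% of all dnmt1 peaks, and 27.5% lay in the middle 20% of the chromosome, against 20%. Of 344 lost peaks 9 (2.62%) lay within 50 kb of the outermost peak, against 1.68% of WT peaks, and 16.9% lay in that middle part. The sequence named mating_type_plus held 26 WT and 22 dnmt1 peaks, with 4 lost, 0 gained and 22 pairs. Its pairs ranked a median of 3.33 points higher in dnmt1, from -25.35 to 30.15.

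Among one-to-one partners, dnmt1 peaks were slightly narrower. The median difference in width, dnmt1 minus WT, was -10 bp, with quartiles of -49 and 29 bp. Of the pairs 8136 (56.5%) were narrower in dnmt1 and 6164 (42.8%) wider, and each edge lay a median of 5 bp further in. The median was below 0 on all 17 chromosomes. In WT mt- against WT mt+, both WT for DNMT1 but different in strain and mating type, the median was 8 bp in the other direction. A shift of this size thus arose between lists without loss of DNMT1.

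Large differences in width were rare and lay among weak peaks. At least 1.5 times wider in dnmt1 were 96 pairs (0.667%), and at least 1.5 times narrower 142 pairs (0.986%). Between the WT lists, 0.889% of pairs were wider and 0.524% narrower by that rule. Pairs were put in 10 classes by their mean percentile. The weakest class, with 1154 pairs, held 104 of the 142 narrower and 41 of the 96 wider pairs, and its median difference was -26 bp against -1 bp in the strongest class. Of the 6556 pairs above the median of both lists, 6 were wider and 6 narrower by the rule.

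**Figure D3:**
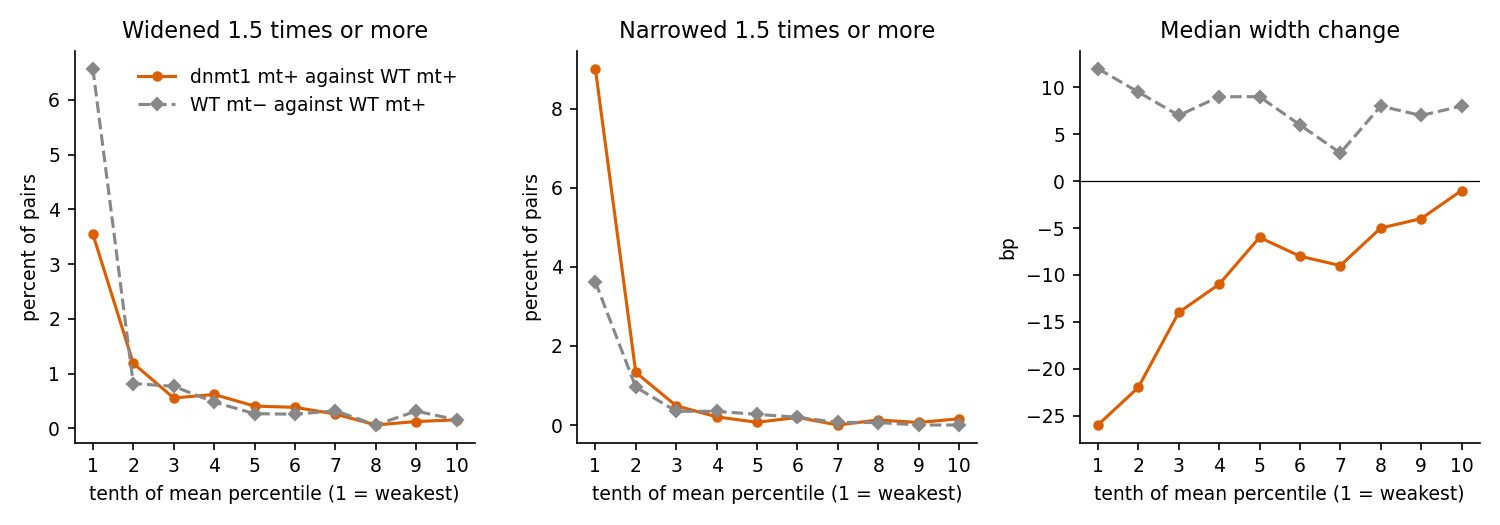
Percent of one-to-one pairs at least 1.5 times wider (left) or narrower (middle) and median width difference in bp (right) by class of mean percentile of -log10 q (1 weakest, 10 strongest), for dnmt1 mt+ against WT mt+ (orange circles) and WT mt- against WT mt+ (grey diamonds). The median dnmt1 difference runs from -26 bp in the weakest class to -1 bp in the strongest, and the share of narrowed pairs is 9.01% in the weakest class.

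The wider pairs were wider in the other strain too more often than pairs in general, and the narrower pairs were more often wider than narrower there. Of the 85 wider pairs with partners in the mt- lists, 38 (44.7%) were at least 1.5 times wider in dnmt1 mt- than in WT mt-, against 1.02% of all 14050 followed pairs. Another 6 (7.06%) were narrower there by that rule, against 0.342%. Of 125 followed narrower pairs, 2 (1.6%) were narrower there, against 0.342% of all followed pairs, and 9 (7.20%) wider, against 1.02%. By position 42.7% of wider pairs lay within 50 kb of a gained peak, against 12.5% of all pairs, and 37.3% of narrower pairs within 50 kb of a lost peak, against 25.1%. The shares for all pairs were not matched for strength. Below the 25th WT percentile stood 79 of the 96 wider and 125 of the 142 narrower pairs. Of all pairs below it, 15.7% lay within 50 kb of a gained peak. For lost peaks, 209 of these 3329 pairs lay under 5 kb away. Another 319 lay 5 to 20 kb and 486 lay 20 to 50 kb away. Together these make a larger share than the 25.1% of all pairs. Gained and lost peaks come from the same 2 lists as the widths. The strong pair with the highest ratio, at chromosome 14, 2204129 to 2204733, was 605 bp wide in WT and 1493 bp in dnmt1, a ratio of 2.47, and went from 566 to 1408 bp between the mt- lists. The pair at chromosome 15, 2676033 to 2676848, was 816 bp in WT and 1357 bp in dnmt1, and 762 and 1314 bp in the mt- strain. Not every such pair repeated. The WT peak at chromosome 2, 4958007 to 4958945, was 939 bp against 1484 bp in dnmt1, but in the mt- strain WT had the wider peak, 1461 against 922 bp. Among narrower pairs, the WT peak at chromosome 2, 3473377 to 3474412, was 1036 bp against 579 bp in dnmt1, and the one at chromosome 2, 1180018 to 1181744, 1727 against 978 bp.

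Summits of partners lay as close together as between the WT lists. The median distance between the summits of partners was 33 bp, the same as between the WT lists, and 614 pairs (4.26%) were at least 200 bp apart, against 4.36% between the WT lists. Leftward and rightward shifts were nearly even, 7247 and 7023. Wide peaks had the shifted summits: 1.19% of pairs under 500 bp in WT width, 1.69% from 500 to 1000 bp, 10.1% from 1000 to 2000 bp and 16.1% above. Between the WT lists those shares were 1.24%, 1.81%, 10.1% and 20.3%. The longest shift among strong pairs, at chromosome 5, 796616 to 799406, was 1509 bp to the right inside a peak of 2791 bp, and the summit of the same pair lay 1407 bp to the right in the mt- strain. The shift of 1114 bp at chromosome 15, 2691783 to 2694791, was -1 bp there.

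Ranks moved as much with genotype as between the WT lists, except in the extreme tail. The SD of the rank difference, dnmt1 percentile minus WT percentile, was 11.2 points against 10.8 between the WT lists. At least 10 points higher in dnmt1 were 2123 pairs (14.7%) and at least 10 points lower 2338 (16.2%), where the WT lists gave 15.2% and 14.2%. By chromosome the share ranked higher ran from 12.6% (chromosome 11) to 19.4% (chromosome 4), and the share ranked lower from 11.1% (chromosome 15) to 19.0% (chromosome 14). Of the pairs ranked higher 28.2% of those followed were so in the mt- strain, against 17.0% of all followed pairs. Of those ranked lower 22.4% were so, against 15.2%.

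Beyond 50 points, a limit chosen after the values were seen, the tail was one-sided. There were 14 pairs (0.0972%) higher in dnmt1 and 2 (0.0139%) lower. Between the WT lists the same limit gave 1 higher and 7 lower, and between dnmt1 and WT in the mt- strain 14 higher and 0 lower. The asymmetry depends on the ranking: by fold enrichment instead of -log10 q, 32 pairs were higher and 29 lower, and 9 of the 32 were among the 14. All 14 had a higher fold enrichment in dnmt1, 4.96 to 8.67 against 2.17 to 5.03 in WT. Fold enrichment and -log10 q describe the same peaks of the same 2 lists, so this is not an independent measure.

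**Figure D4:**
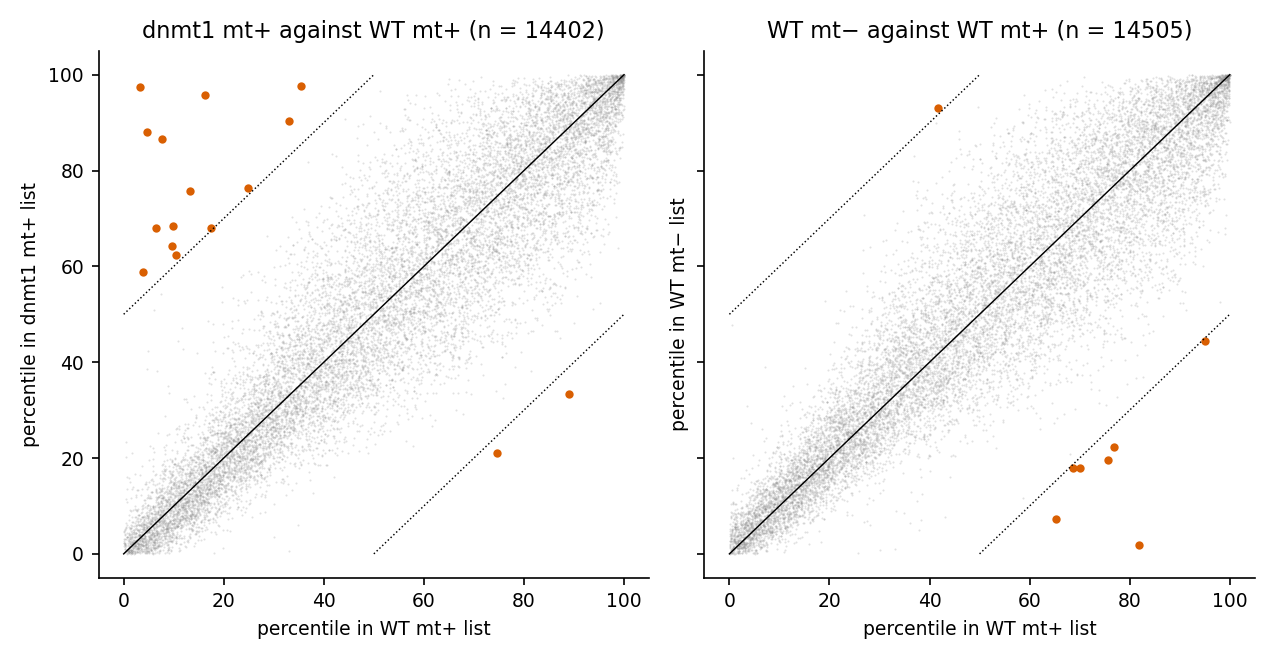
Percentile of -log10 q of each one-to-one pair in the WT mt+ list (x axis) against the percentile in dnmt1 mt+ (left) or WT mt- (right), 1 point a pair. In the dnmt1 panel 14 pairs lie at least 50 points above the diagonal and 2 at least 50 points below it.

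A rise of at least 50 points requires a WT percentile of at most 50 and a dnmt1 percentile of at least 50. The 14 pairs lay on 8 chromosomes, most of them near gained peaks. They stood between the 3.31st and 35.5th percentile in WT and between the 58.8th and 97.7th in dnmt1. All were wider in dnmt1, 13 of them by at least 1.5 times, and their median width was 535 bp in WT and 1124 bp in dnmt1. Within 25 kb of a gained peak were 12 of the 14 (85.7%), against 9.73% of the pairs below the 25th WT percentile, and the other 2 lay 59.3 and 65 kb from one. Of the 32 pairs higher by 50 points in fold enrichment rank, 9 (28.1%) lay within 25 kb of a gained peak. Gained peaks and these ranks come from the same pair of lists, so the closeness is not an independent measure. In the mt- strain 11 of the 14 could be followed, and all 11 ranked higher in dnmt1 there by 31.30 to 87.77 points. The same peaks differed by -6.07 to 20.22 points between the WT lists.

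The largest difference was at chromosome 6, 4538816 to 4539074. This peak was 259 bp wide with a fold enrichment of 2.25 in WT, and 1166 bp with 7.96 in dnmt1, a rank 94.14 points higher, and lay 13.4 kb from a gained peak. At chromosome 17, 6061565 to 6061974, fold enrichment was 2.17 in WT and 6.58 in dnmt1, 83.41 points higher, and 2.45 and 7.49 in the mt- lists. The peak at chromosome 15, 2657254 to 2657972, had 3.71 and 8.67 (79.53 points) and in the mt- strain 2.97 and 8.70. That at chromosome 16, 3514710 to 3515302, had 2.80 and 7.0 (79.01 points), and that at chromosome 17, 6209597 to 6210186, 3.28 and 6.86 (62.47 points).

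Peaks ranked lower in dnmt1 did not repeat in the mt- strain to the same degree. The lowest was at chromosome 17, 1336790 to 1337873. Its fold enrichment was 8.08 in WT and 4.34 in dnmt1, with a rank difference of -55.66 points, but -1.28 points between the mt- lists. The next, at chromosome 13, 4912744 to 4913649, differed by -53.67 points, and by 24.03 points in the mt- strain. Those at chromosome 4, 3204885 to 3205577 (-49.35 points), and chromosome 6, 7603824 to 7604490 (-43.23 points), differed there by 0.22 and 6.36 points. The last, at chromosome 9, 5013579 to 5014347, differed by -43.22 and by -21.18 points. Between the WT lists these 5 peaks differed by -56.19 to -29.56 points, WT mt- minus WT mt+, and that comparison uses the same WT mt+ list. None of these 5 lay within 100 kb of a gained peak. Of all 14402 one-to-one pairs, 11042 also lay over 100 kb from one, so this does not set the 5 apart.

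Weak peaks close to gained peaks ranked higher in dnmt1 more often than weak peaks elsewhere. Gained and lost peaks were called from the same 2 lists as these rank and width differences, so closeness to them is not an independent measure. The comparison of the WT lists leaves out the dnmt1 list and is no control for that. Among pairs below the 25th WT percentile, 25.9% (21 of 81) of those under 5 kb from a gained peak ranked at least 10 points higher. The share was 14.5% at 5 to 20 kb, 6.64% at 20 to 50 kb, 8.48% at 50 to 100 kb and 6.03% farther away. Pairs at least 50 points higher are included, 3 of the 21 under 5 kb and 5 of the 27 at 5 to 20 kb. Between the WT lists the shares for the same WT peaks were 3.95%, 4.52%, 3.64%, 6.56% and 7.0%. Widening followed the same order near gained peaks. Of the weak pairs, 11.1% were at least 1.5 times wider under 5 kb and 1.57% beyond 100 kb. Between the WT lists, which differ in strain and mating type, 6.58% and 2.49% were wider, a smaller gradient in the same direction. Near lost peaks narrowing was more frequent. Among weak pairs, 8.61% of those under 5 kb from a lost peak were narrower by that rule against 3.38% beyond 100 kb, where the WT lists gave 1.03% and 1.31%. These shares were not matched for strength: the median WT percentile was 8.78 under 5 kb and 13.9 beyond 100 kb. In the weakest of the 10 classes of all pairs 9.01% were narrower. Among all pairs the shares were 4.28% (21 of 491) and 0.815%, and between the WT lists 1.29% and 0.345%, but pairs under 5 kb were also weaker, with a median WT percentile of 32.7 against 52.8.

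**Figure D5:**
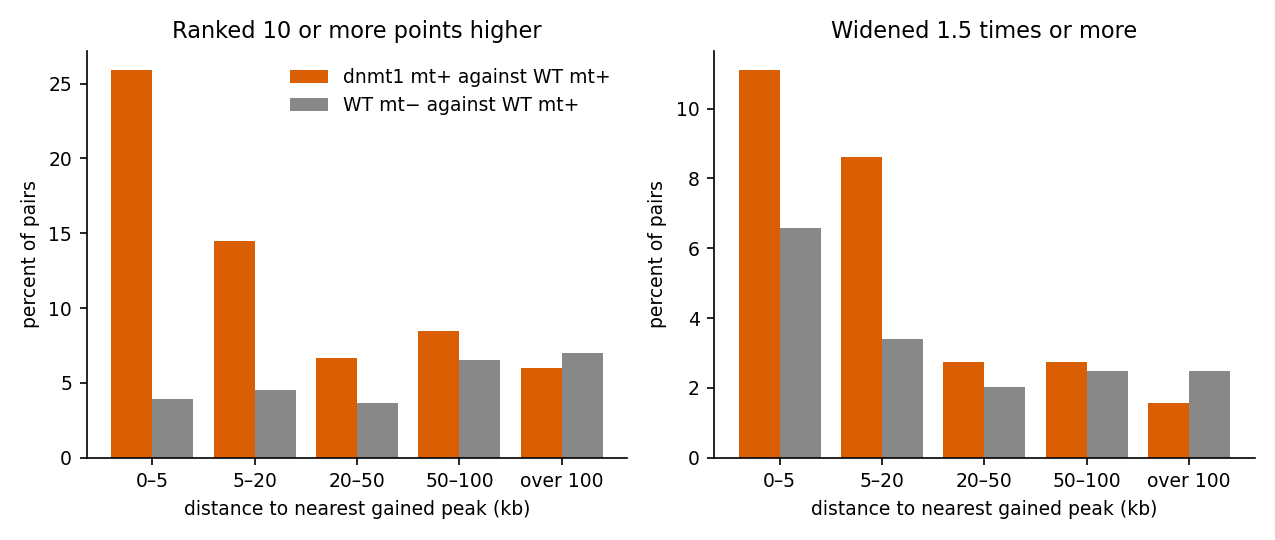
Pairs below the 25th WT percentile by distance to the nearest gained peak: percent ranked at least 10 points higher and percent at least 1.5 times wider, for dnmt1 mt+ against WT mt+ (orange) and WT mt- against WT mt+ (grey). Under 5 kb the dnmt1 bars stand at 25.9% and 11.1%. Gained peaks were called from the same lists as the orange bars, so the distance is not an independent measure.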

How the data were processed

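H3K27ac ChIP-seq peak lists of WT and dnmt1 cells, 1 library per group, were analysed as deposited. Per the labels' protocols, cells were fixed with formaldehyde, chromatin was sonicated and precipitated, with an input control that also served H3K4me1 libraries. Tools listed per the submitters' processing notes were MACS2 2.2.7.1, deepTools 3.5.1, Bowtie2 2.4.2, Trim Galore 0.6.7 and Picard, without options. The build and the peak threshold were not given in the sources used here. The authors deposited, for each peak, position, a score, the fold enrichment ratio, -log10 p-value, -log10 q-value and summit. Depth is unknown, and peaks of 1 list were called in 1 library.

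Ranks used -log10 q, and partners overlapped by at least 1 bp. Alternatives were an overlap of 50% of the shorter peak, -log10 q of at least 10, a gap of 1000 bp, equal list lengths, and other limits on width, summit and rank. Named peaks were the 10 lost and 10 gained with the highest fold enrichment, the 5 most widened, narrowed and summit-shifted pairs above the median of both lists, the 5 with the largest rank difference each way, the 3 highest and 3 lowest chromosomes, and the 5 windows with most lost or gained peaks. The members and lists were chosen with earlier results of these data known. Genes were not assigned: peaks ran past the last gene of the v5.5 gene table on 12 of 17 chromosomes, by up to 3905 kb. Intervals take peaks as independent and cover counting error only. The functions were tested on simulated data. Software was matplotlib 3.10.9, scipy 1.17.1, pandas 2.3.3, numpy 2.4.6 and Python 3.11.15.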

Additional observations from a re-analysis of the deposited data

Results flagged for a closer look

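The balance of several counts pointed in opposite directions in the strains at the limits used in the report, and these differences were not tested, with 1 library per group. Gained minus lost peaks came to -57 (CC-5155, mt+) and to 246 (CC-5325, mt-). Widened minus narrowed pairs was -46 in mt+ and 100 in mt-. The median width difference, dnmt1 minus WT, was -10 bp in mt+ and 1 bp in mt-. Pairs ranked at least 10 points higher minus those at least 10 points lower were -215 in mt+ and 264 in mt-. At stricter limits the strains had the same sign. At a width ratio of 2, 35 pairs were widened and 21 narrowed in mt+, and 50 and 16 in mt-. At 20 points, 639 pairs ranked higher and 586 lower in mt+, and 691 and 541 in mt-. The mt+ balance of gained and lost peaks depended on how weak peaks were left out. At a -log10 q of at least 10 in the list of origin, with the other list whole, it turned, with 165 gained and 109 lost. With that limit in both lists it did not turn, with 287 gained and 420 lost. Requiring a gap of 1000 bp turned the balance, with 236 gained and 224 lost.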

How the results depend on the processing

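The 12 results were recomputed in 62 alternatives, of which 50 stayed within 1.5 times or within the interval and 12 moved. Only the median width difference could change sign, since the other results are counts, and it did not. The balance between paired counts did turn under some alternatives. With -log10 q of at least 10 in the list of origin, 109 peaks were lost and 165 gained, so the balance of gains and losses turned; the cause was not tested. Requiring no peak within 1000 bp left 224 lost and 236 gained peaks, which turned that balance too. With -log10 q of at least 10 in both lists, 420 peaks were lost and 287 gained, so that balance did not turn. In the same setting 61 pairs were widened and 65 narrowed. Stricter limits, which give fewer calls by construction, left 35 widened and 21 narrowed pairs at a ratio of 2, 133 summits at least 500 bp apart, and 639 pairs ranked higher and 586 lower at 20 points. Ranking by fold enrichment gave 32 pairs higher and 29 lower by 50 points, a setting chosen after seeing the data; the cause was not tested. No paired analysis was possible because each group had 1 library. Depth is unknown, and its part in the weak calls was not tested. In the lowest 10% of their list were 337 of the 356 lost and 176 of the 299 gained peaks.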

Other observations

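A stretch of chromosome 15, 2600001 to 2800000, chosen after its values were seen, held several of the extreme peaks of the comparison. The widest peak of the WT mt+ list, 2660293 to 2674886 (14594 bp), overlapped 3 dnmt1 mt+ peaks of 6327, 762 and 7255 bp. These had 14344 bp together and ran from 2660238 to 2666564, 2666725 to 2667486 and 2667647 to 2674901. Only short gaps parted them, so nearly the same stretch was under peaks in both lists. WT mt- had a peak of 14599 bp at almost the same place, 2660279 to 2674877. The widest dnmt1 mt- peak of the stretch had 7970 bp and lay elsewhere, at 2612599 to 2620568. What dnmt1 mt- had under the wide WT mt- peak is not reported here. The widest dnmt1 mt+ peak, 2695001 to 2704194 (9194 bp), overlapped 2 WT peaks of 4555 and 7292 bp, 11847 bp together. The stretch had 51 peaks over 101 kb in WT mt+ and 59 over 104 kb in dnmt1 mt+.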
